A study of Mus musculus with 121 samples.

Results

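A group of 10 enzymes and helper proteins that finish collagen outside or on its way out of the cell were followed in mouse fibroblasts: 4 lysyl oxidases (Lox, Loxl1, Loxl2, Loxl3), the lysyl hydroxylases Plod1 and Plod2, the procollagen C-proteinase Bmp1 with its enhancers Pcolce and Pcolce2, and the collagen chaperone Serpinh1. The genes were chosen by name as one functional group, by no threshold on their values but with earlier results of these data known, and are 10 of the 31053 Ensembl identifiers counted in every library. Levels are given as CPM, the counts of a gene scaled to the same library total of 1000000, and all 10 genes passed the filter of at least 1 CPM in at least 3 libraries.

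Collagen is made as procollagen in the endoplasmic reticulum, where lysyl hydroxylases modify lysines that later carry cross-links and where Serpinh1, also called HSP47, binds the folded triple helix. After secretion, Bmp1 cuts off the C-terminal propeptide, a step that the Pcolce proteins accelerate, and the trimmed molecules assemble into fibrils. Lysyl oxidases, copper-dependent enzymes, then oxidise lysines of collagen and elastin so that neighbouring molecules become covalently joined. Fibroblasts are a main source of all these proteins in connective tissue.

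The cells were Per2::Luc fibroblasts, an immortalised line from mouse ear that carries a knocked-in PER2::LUCsv luciferase reporter, and the same line served all 3 treatments. Cells of HL received a medium high in glucose with insulin (H) and then one low in glucose and without insulin (L). The 2 media filled equal parts of each 24 h cycle, and the cycles were repeated for 3 days. Cells of LH received the opposite order. For HH the rich medium was renewed at both changes, so that HH received the changes of medium without the alternation. The cells were then left to run freely. Collection began only after a first stretch of this free run, so the first collection was not at the last change of medium. Cells were collected 6 times, 4 h apart, for 3′ digital gene expression. This counts the 3′ ends of transcripts, so levels of different genes can be compared without dividing by length. The study's methods state that its replicates were biological and that repeat runs of a library were pooled, while the labels do not tie single libraries to cultures, so the tests measure the spread between libraries.

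Going by sample titles, HL had 21 libraries, LH 22 and HH 19, which makes 62 in total and 2 to 4 per treatment at each collection. The library numbers in the study's read summary give another name to 35 of these libraries and list no name for 5, and 31 libraries of HL or LH then belong to the other treatment. HH is the same in both assignments. Times were set from the collection number in the title, 4 h apart, since the clock times that the titles also carry do not follow that order: they read 20, 12, 4, 8, 12 and 16 for collections 1 to 6 of HL and HH, and 20, 12, 16, 20, 12 and 16 for LH. Each result is therefore given by titles and by library numbers (57 libraries, 19 of each treatment, with LH collection 5 down to 1 library). Of 8 clock and clock-controlled genes taken as a check, JTK_cycle (below, P below 0.01) called 2 and 3 by titles for HL and LH, against 8 and 5 by library numbers, and 6 for HH. The shares of all genes called were 0.82% and 1.53% by titles, 1.83% and 2.14% by library numbers, and 1.99% for HH by titles. The F test over collections (below, adjusted p below 0.05) separated the namings less. It called 4 of the 8 for HL under both, 3 by titles and 4 by library numbers for LH, and 6 for HH under both. One library, LH collection 2 replicate 2, held 104912 counts, and the others held 2136819 to 11619095. Of 10 fibroblast markers, 9 averaged at least 1 CPM (the exception was Fap, at 0.336 CPM), and their summed level was 17876 to 40970 CPM over all libraries. The summed keratinocyte markers stayed at or below 7.96 CPM, with Krt5 at 0 counts in every library, while the leukocyte markers reached 334 CPM in the library of 104912 counts and at most 25.3 CPM elsewhere. Single genes of 3 other lists were expressed: the endothelial list, through Kdr, summed to 22.8 to 270 CPM, the chondrocyte list, through Sox9, to 294 to 1129 CPM and the smooth muscle list, through Cnn1, to 12.0 to 93.7 CPM. Their part in the results was not tested. A set of 6 libraries resembled the rest less (median Spearman rho with the other libraries 0.803 to 0.898, against a median of 0.958 over all libraries), among them all 3 libraries that the titles place in LH collection 2.

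On the GRCm38 assembly with GENCODE M21 genes, Lox (ENSMUSG00000024529) lies on the minus strand of chromosome 18 at 52516067 to 52529867. Loxl1 is on chromosome 9 (58287738 to 58313186, minus), Loxl2 on chromosome 14 (69609068 to 69695834, plus) and Loxl3 on chromosome 6 (83034173 to 83052562, plus). Plod1 is on chromosome 4 (147909753 to 147936767, minus) and Plod2 on chromosome 9 (92542223 to 92608428, plus). Pcolce is on chromosome 5 (137605103 to 137613784, minus), Pcolce2 on chromosome 9 (95637601 to 95698096, plus), Bmp1 on chromosome 14 (70474558 to 70520234, minus) and Serpinh1 on chromosome 7 (99345376 to 99353239, minus). Of the 10, only the 3′ end of Loxl3 lies inside another annotated gene, Htra2 on the opposite strand (1297 shared bases, mean 12.6 CPM). Since the use of strand in counting is not given in the sources used here, reads of these 2 genes cannot be told apart there.

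The RefSeq promoter table (GRCm38.p6) held 4 of the 10 genes, and the 250 bases before the annotated start are shown for Pcolce2 and Serpinh1, which besides Lox had the smallest P-values over time in HH (below). Capitals mark matches, on either strand, to any of 5 motifs. These were the E-box CACGTG, to which CLOCK and BMAL1 bind, and its inner part ACGTG. The others were AGGTCA, a core site of REV-ERB and ROR receptors, then CAGACA as a SMAD-type element, and the TATA box TATAAA. Pcolce2 is printed from chr9:95637378-95637627 on the plus strand and Serpinh1 from chr7:99353240-99353489 on the minus strand.

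Pcolce2: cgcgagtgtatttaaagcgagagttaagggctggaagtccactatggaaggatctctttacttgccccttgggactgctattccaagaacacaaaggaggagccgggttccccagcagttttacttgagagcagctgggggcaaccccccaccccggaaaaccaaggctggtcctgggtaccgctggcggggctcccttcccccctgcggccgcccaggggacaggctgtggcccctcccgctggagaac

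Serpinh1: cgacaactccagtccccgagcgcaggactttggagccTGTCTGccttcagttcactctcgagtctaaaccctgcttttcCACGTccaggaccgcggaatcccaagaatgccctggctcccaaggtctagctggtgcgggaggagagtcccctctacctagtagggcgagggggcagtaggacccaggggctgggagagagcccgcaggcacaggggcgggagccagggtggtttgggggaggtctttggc

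The Pcolce2 window held none of the 5 motifs. Serpinh1 held 1 match to ACGTG and 1 to CAGACA, 171 and 213 bases before the start, motifs that were present in 19.6% and 21.0% of all 32851 promoter windows of 300 bases (250 before to 50 after the start). The full E-box was found in 7.15% of all windows, the receptor site in 16.3% and the TATA box in 13.6%, and among the 4 genes only the last was found, in Plod1. These matches are a description of the sequence only.

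The levels of the 10 genes spanned more than 3 orders of magnitude (plot of levels by gene). Over the 62 libraries by titles, Lox averaged 1122 ± 288.1 CPM (SD) and Pcolce 974 ± 126 CPM, followed by Serpinh1 (298 ± 85.2), Loxl1 (188 ± 29.8), Plod2 (162 ± 28.4), Bmp1 (104 ± 24.3), Plod1 (48.9 ± 7.61), Loxl3 (21.5 ± 5.44), Pcolce2 (5.66 ± 3.23) and Loxl2 (0.728 ± 0.793). Lox exceeded Pcolce in 45 of 62 libraries, and Loxl1 exceeded Plod2 in 52 of 62, so these neighbours were not separated by their spread. Every other neighbour in this order was higher than the next in at least 59 of 62 libraries, and Plod1 exceeded Loxl3 in all 62. The steadiest gene was Pcolce, with a coefficient of variation of 13.0% over libraries, whereas Lox varied by 25.7% and Serpinh1 by 28.6%.

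**Figure D1:**
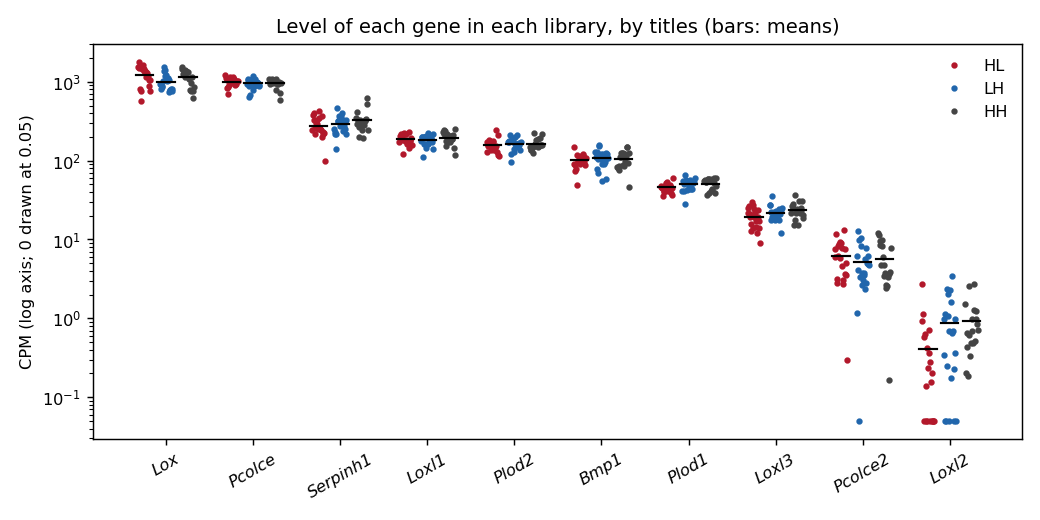
Level of each of the 10 genes in CPM (log axis; a value of 0 is drawn at 0.05) in every library, by titles, coloured by treatment (HL 21, LH 22 and HH 19 libraries); black bars are means. Lox and Pcolce average 1122 and 974 CPM and Loxl2 0.728 CPM, and the 3 treatments overlap for every gene.

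Lox, which oxidises peptidyl lysine in collagen and elastin, was the only member of the group whose level changed over the collections in all 3 treatments. In HH, where both assignments coincide, the 4 libraries of the first collection held 1263 to 1541 CPM (mean 1403 ± 117 SD). The next collections averaged 1322 ± 154 (n = 3), 1334 ± 9.73 (n = 3) and 1100 ± 16.7 CPM (n = 2). At 16 h the level was 843 ± 103 CPM, with 3 libraries between 774 and 961, and at 20 h it was 848 ± 217 CPM over 4 libraries between 624 and 1138. The first collection and that of 16 h did not overlap, and their means were 1.66-fold apart.

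By titles, HL and LH followed other courses. In HL, Lox stood at 1608 ± 155 CPM at the first collection (n = 3), 903 ± 386 at 4 h (n = 4), 1532 ± 84.3 at 8 h (n = 3), 1316 ± 112 at 12 h (n = 4), 1222 ± 57.1 at 16 h (n = 3) and 937 ± 137 at 20 h (n = 4). At 4 h, 3 libraries that the read summary does not list stood at 565, 773 and 816 CPM, and replicate 4 at 1458 CPM. In LH, the means were 889 ± 68.5 (n = 3), 919 ± 89.6 (n = 3), 1378 ± 140, 1090 ± 91.9, 918 ± 187 and 791 ± 19.9 CPM (n = 4 each), so that 8 h was highest and its libraries overlapped only with those of 12 h.

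By library numbers, HL and LH both declined from the first collection. HL went from 1608 ± 155 CPM through 1440 ± 79.6, 1154 ± 97.0 and 1062 ± 34.1 to 766 ± 24.7 at 16 h and 793 ± 23.6 at 20 h. LH went from 1532 ± 83.9 CPM through 1412 ± 39.5, 1243 ± 82.9 and 1042 ± 119 to a single library of 765 CPM at 16 h and 889 ± 55.9 at 20 h. The highest mean was 2.10-fold the lowest in HL, against 1.66-fold in HH, and in LH the first collection stood at 1532 CPM against the single library of 765 CPM.

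**Figure D2:**
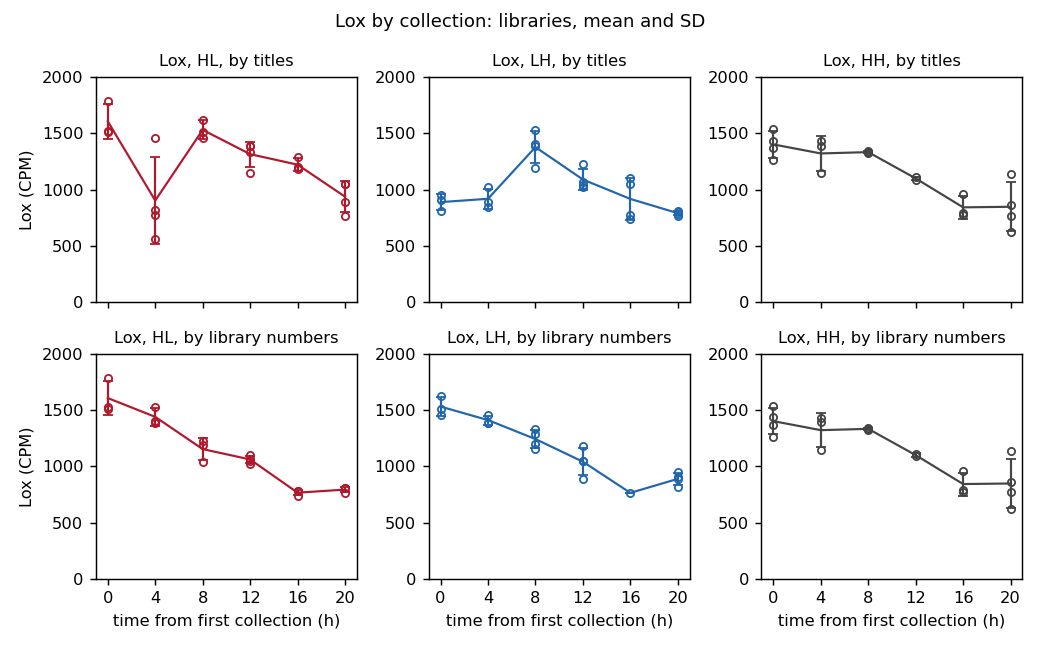
Lox in CPM against the time from the first collection (h), in HL, LH and HH, with libraries placed by titles (top) or by library numbers (bottom). Circles are libraries, lines join the collection means and bars are SD (none for the single LH library at 16 h). By library numbers the mean falls from 1608 CPM in HL, 1532 in LH and 1403 in HH to between 765 and 843 CPM at 16 h, while by titles the LH mean is highest at 8 h and the HL mean lowest at 4 h.

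The 6 collections were compared within each treatment by edgeR's quasi-likelihood F test with Benjamini-Hochberg adjustment over all genes. By titles, Lox passed in HL (adjusted p = 0.0159), LH (0.0101) and HH (0.0114), and no other of the 10 genes did, where 0.301%, 2.93% and 0.293% of the 13292 genes tested passed. By library numbers, Lox again passed alone, with adjusted p = 2.65e-08 in HL, 0.000751 in LH and 1.75e-05 in HH, and 0.394%, 1.05% and 0.803% of 13198 genes passed. The HH libraries were the same in both assignments. All treatments shared 1 fit, so the HH value moved only with the naming and choice of HL and LH libraries and is not separate evidence. At an unadjusted p below 0.05 by titles, 2, 2 and 3 of the 10 genes passed in HL, LH and HH (Lox in each, with Loxl2 in HL, Pcolce2 in LH, and Pcolce2 and Serpinh1 in HH), where 8.98%, 16.9% and 8.61% of all genes did. Without the 6 libraries that resembled the rest less, the adjusted p of Lox by titles in edgeR was 0.0146, 0.00726 and 0.00514. In the second run alone it was 0.0584 in HL and 0.0827 in HH. Leaving out 1 replicate number of a treatment often ended its call by titles: in HL the edgeR adjusted p was 0.138 without replicate 1, 0.409 without replicate 2 and 0.215 without replicate 3, in LH it was 0.14 without replicate 1 and 0.075 without replicate 3, and in HH it was 0.097, 0.223, 0.169 and 0.0653 without replicates 1 to 4.

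Rhythms were sought with JTK_cycle, a rank test against 24 h curves, at P below 0.01 without adjustment over genes. The last collection came 20 h after the first, so a decline over the collections cannot be told apart from a 24 h rhythm. A peak hour is that of the closest curve. In LH by titles, Lox had P = 0.000222 with a peak at 8 h after the first collection. In HH it had P = 0.00183 with a peak at 4 h, and in HL by titles P = 0.635. By library numbers it reached P = 0.00015 in HL and 0.000284 in LH, with the peak at 4 h in all 3 treatments. Among the 10 genes, the count called rhythmic by titles was 0, 1 and 2 for HL, LH and HH, where 0.82%, 1.53% and 1.99% of all genes tested were called. By library numbers it was 1, 1 and 2, where 1.83%, 2.14% and 2% were called. After Benjamini-Hochberg adjustment over all genes, no JTK_cycle P of the 10 genes was below 0.05 in either assignment, and the smallest was 0.11, for Lox in HL by library numbers. Leaving out replicate 4 of LH gave Lox P = 0.0113 in LH by titles. In HH, its P was 0.0122 without replicate 1, 0.0131 without replicate 3 and 0.0515 without replicate 4. By library numbers, its P in HL was 0.0132 without replicate 1 and 0.0122 without replicate 2, and in LH 0.0156 without replicate 1.

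The second gene called rhythmic was Pcolce2, which encodes the weaker expressed of the 2 C-proteinase enhancers. In HH its 4 libraries of the first collection held 8.45 to 12.2 CPM, and its means then fell from 10.4 ± 1.69 through 7.66 ± 2.61, 4.73 ± 1.27 and 3.18 ± 0.778 to 2.79 ± 0.497 CPM at 16 h. At 20 h the mean was 3.83 ± 3.08 CPM, with replicate 2 at 0.165 CPM and replicate 4 at 7.70 CPM. The collections at 0 h and 16 h were separate, 3.74-fold apart, and JTK_cycle gave P = 0.000338 with a peak at 2 h. The F test over collections in HH gave p = 0.0093 before and adjusted p = 0.333 after edgeR's Benjamini-Hochberg adjustment. Without replicate 3 of HH the JTK_cycle P was 0.0181, without replicate 4 it was 0.0109 and in the second run alone 0.0104. With a further demand of an amplitude above 10 CPM, Pcolce2 was not called, since its amplitude was 4.45 CPM.

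Pcolce2 was not called rhythmic in HL or LH under either assignment. By titles its collection means ranged from 3.13 to 8.40 CPM in HL and from 3.23 to 7.58 CPM in LH, with both P-values at 1. By library numbers, HL stood at 8.40 ± 2.98 CPM at the first collection, 3.12 ± 0.559 at 8 h and 5.27 ± 0.797 at 20 h (P = 0.0595), and LH had P = 0.198. At a mean of 5.66 CPM the gene was measured from few reads, 0 to 83 counts in a library.

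Serpinh1, the collagen chaperone, had its highest mean in HH at the last collection, and neither JTK_cycle nor the F test over collections called it in HH. Its means were 347 ± 53.2, 263.97 ± 64.0, 271.6 ± 25.4, 250 ± 81.4 and 308 ± 22.3 CPM over the first 5 collections and 433 ± 171 CPM at 20 h, where the 4 libraries stood at 342, 517, 627 and 247.04 CPM. The libraries of the last collection overlapped those of every other collection. JTK_cycle gave P = 0.0458, above its threshold, and the F test over collections gave adjusted p = 0.302 (edgeR). A cosine fit in edgeR at p below 0.01 did call Serpinh1 in HH beside Lox and Pcolce2, where 2.87% of all genes were called, as did the F test without the filter on low counts (2.4%). The library at 627 CPM, replicate 3, is one of the 6 that resembled the rest less.

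In HL by titles Serpinh1 ended at 193 ± 62.3 CPM, lower than its 343 ± 85.1 CPM at the first collection, and in LH its means lay between 234.9 and 331 CPM. By library numbers, HL stayed between 264.3 and 343 CPM, and LH stood at 307 ± 17.7 CPM at the first collection and 211 ± 49.8 CPM at 20 h, with the single library of 16 h at 99.95 CPM. That library is HL collection 6 replicate 4 by titles. The JTK_cycle P in LH by library numbers was 0.0172. Without the 6 libraries that resembled the rest less, Serpinh1 joined Lox among the genes called in LH by library numbers, both by JTK_cycle and by the F test over collections.

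**Figure D3:**
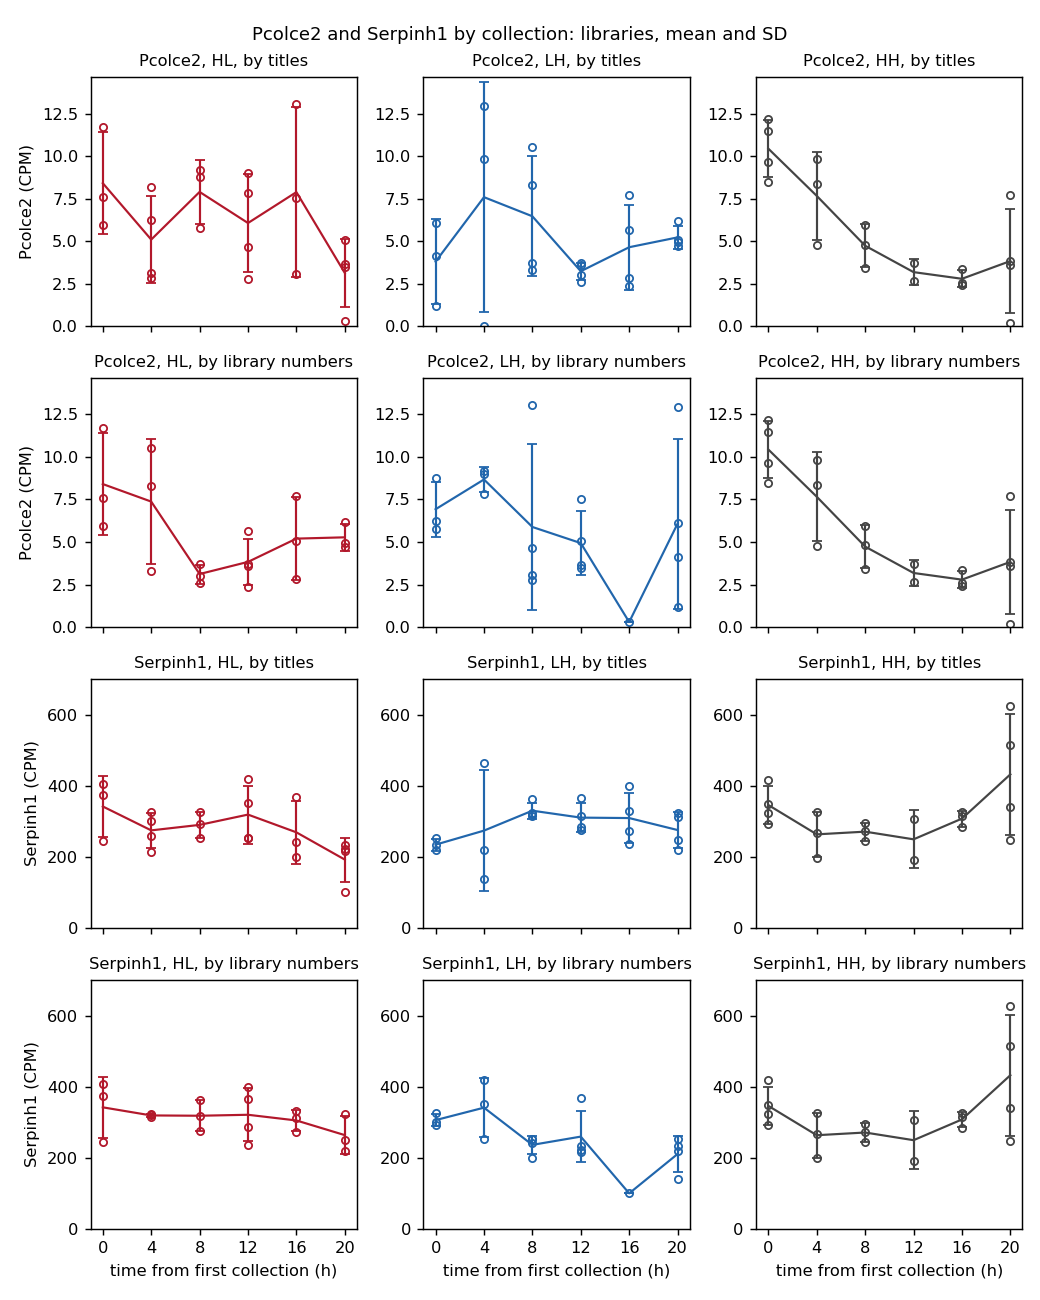
Pcolce2 (upper 2 rows) and Serpinh1 (lower 2 rows) in CPM against the time from the first collection (h), in HL, LH and HH, by titles and by library numbers; circles are libraries, lines join means and bars are SD. In HH, Pcolce2 falls from 10.4 to 2.79 CPM by 16 h, and Serpinh1 spans 247.04 to 627 CPM among the 4 libraries of 20 h.

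Whether rhythms differed between treatments was tested in edgeR on the 24 h cosine and sine of each treatment. No member of the group passed after Benjamini-Hochberg adjustment in LH against HL, HH against HL or LH against HH, where 0.0677%, 0.015% and 0.0527% of genes passed by titles and 0.00758%, 0% and 0% by library numbers. Before adjustment, by titles, 0, 3 and 2 of the 10 genes had p below 0.05, where 7.21%, 9.91% and 9.61% of all genes did. By library numbers the counts were 0, 1 and 1, where 3.01%, 5.48% and 6.87% of all genes did. Serpinh1 was in each of these non-zero counts: its unadjusted p was 0.00169 for HH against HL and 0.0021 for LH against HH by titles, and 0.00823 and 0.000343 by library numbers. Without HL collection 6 replicate 4 they were 0.00604 and 0.000903 by titles, and 0.00524 and 0.00131 by library numbers. For Lox the unadjusted p was 0.00759 for HH against HL and 0.00898 for LH against HH by titles, and 0.568 and 0.746 by library numbers. For LH against HL by titles it was 0.0843, and 0.0422 without HL collection 6 replicate 4, so that without this library the count there was at least 1. Pcolce2 had 0.0202 for HH against HL by titles and 0.203 by library numbers.

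Levels over all collections were compared in edgeR with collection as a term, at p below 0.01 over the 3 treatments together with p below 0.05 in the comparison, without adjustment over genes. Lox was the 1 member called by titles. Its libraries held 565 to 1787 CPM in HL (median 1287), 738 to 1532 CPM in LH (median 984) and 624 to 1541 CPM in HH (median 1146), so the treatments overlapped. It was lower in LH than in HL, by -0.32 ± 0.077 on the log2 scale (SE), and lower in LH than in HH, by -0.17 ± 0.080, whereas HH against HL gave -0.16 ± 0.080 and was not called, except without the 6 libraries that resembled the rest less (1.43% of all genes called). Its p over the 3 treatments was 0.000448, and its Benjamini-Hochberg adjusted p in edgeR was 0.243 for LH against HL and 0.883 for LH against HH. The call in LH against HH was lost without LH replicate 2, 3 or 4 and without HH replicate 1 or 4 (-0.16, -0.14, -0.12, -0.16 and -0.16). It was also lost without the library of 104912 counts (-0.15), without collection as a term (-0.16) and with replicate number as a term (0.745% of all genes called). The call in LH against HL was kept without any 1 replicate number.

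By library numbers the difference in Lox turned its sign: LH against HL was 0.09 ± 0.051 and LH against HH 0.08 ± 0.051, with p = 0.176 over the 3 treatments in edgeR. Its medians were then 1068 CPM in HL, 1181 in LH and 1146 in HH.

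Loxl2, a lysyl oxidase with scavenger receptor domains, was at the edge of detection. By titles its counts summed to 52 over the 21 HL libraries, 108 over the 22 LH libraries and 98 over the 19 HH libraries, and 8 HL, 5 LH and 0 HH libraries had no count. The HL counts were uneven over time. The first collection, of the same libraries in both assignments, held 9, 15 and 7 counts, and the last collection by titles held none. Its log2 difference was 1.32 ± 0.50 for LH against HL and 1.34 ± 0.51 for HH against HL, not called, since its p over the 3 treatments was 0.0182. It was called in LH against HL without HL replicate 3 (1.73), in the second run alone (2.09) and with DESeq2 (1.45). With replicate number as a term it was called in LH against HL and in HH against HL (1.04% and 0.978% of all genes called). By DESeq2, 2 of the 10 genes were called in LH against HL (Lox and Loxl2), 1 in HH against HL (Loxl2) and 1 in LH against HH (Lox), where 1.26%, 1.22% and 0.873% of all genes were. By library numbers, HL held 119 counts, LH 29 and HH 98, and Loxl2 was called lower in LH than in HL (-1.89 ± 0.53) and than in HH (-1.68 ± 0.54), with adjusted p of 0.478 and 0.288 in edgeR. The direction of LH against HL was thus opposite in the 2 assignments. No library held more than 21 counts of this gene.

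Among the 10 genes, the number called by titles was 1 in LH against HL, 0 in HH against HL and 1 in LH against HH, where 1.16%, 1.2% and 0.91% of all genes were called. By library numbers the counts were 1, 0 and 1, where 1.34%, 0.568% and 1.63% of genes were called. The median log2 difference of the 10 genes by titles was 0.03 for LH against HL, 0.00 for HH against HL and 0.00 for LH against HH, and the median of all genes was 0.00 in each. By library numbers it was 0.02, -0.01 and 0.01.

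No other member was called in level. By titles, Loxl1, an oxidase known for elastic fibres, differed by -0.07 ± 0.062 in LH against HL and by 0.00 ± 0.065 in HH against HL. The lysyl hydroxylases Plod1 and Plod2 differed by 0.10 ± 0.066 and 0.05 ± 0.087 in LH against HL. Bmp1, the C-proteinase itself, differed by 0.03 ± 0.10 and -0.01 ± 0.11 in LH and HH against HL. HH against HL was 0.23 ± 0.10 for Loxl3 and -0.13 ± 0.063 for Pcolce, and neither passed the threshold over the 3 treatments (p = 0.0691 and 0.0621 in edgeR). By library numbers, Serpinh1 was -0.30 ± 0.12 and Pcolce 0.15 ± 0.055 in LH against HH, with p of 0.0235 and 0.0234 over the 3 treatments, also above the threshold.

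**Figure D4:**
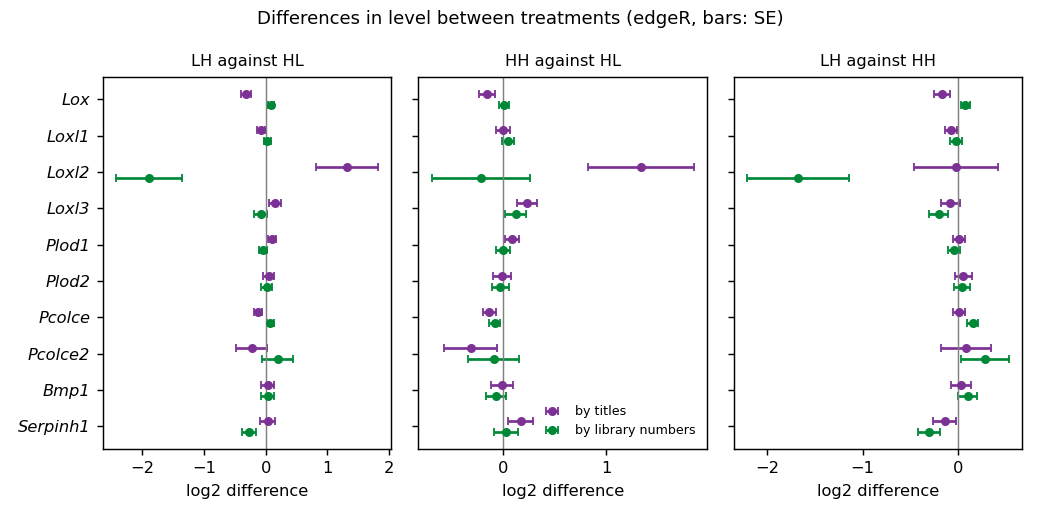
Difference in level on the log2 scale (edgeR, points; bars are SE) of the 10 genes for LH against HL, HH against HL and LH against HH, by titles and by library numbers. Lox lies at -0.32 in LH against HL by titles and at 0.09 by library numbers, Loxl2 changes from 1.32 to -1.89, and most other genes lie within 0.3 of 0 in both.

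Over the 62 libraries the members were compared pairwise on log2(CPM + 1), and 6 of the 45 pairs passed a two-sided permutation test of Spearman's rho with adjustment over the pairs. Pearson's r passed for 7 pairs, 5 of them the same. Lox with Loxl1 (r = 0.40, adjusted permutation p = 0.00622) and Loxl1 with Pcolce (r = 0.38, adjusted permutation p = 0.0165) passed by r alone. Lox and Pcolce were most alike, with r = 0.60 (permutation p = 1e-05, the smallest that 100000 resamples can give, adjusted p = 0.000225) and rho = 0.61 (permutation p = 1e-05, adjusted p = 0.00045). Without the 2 libraries farthest from the median of Lox, r was 0.51. Within treatments r was 0.71, 0.33 and 0.76 for HL, LH and HH, and it was 0.41 after removal of the mean of each treatment and collection. Pcolce and Bmp1, the enhancer and the proteinase it acts on, had r = 0.56 (permutation p = 1e-05, adjusted 0.000225) and rho = 0.37 (permutation p = 0.00386, adjusted 0.0289), with r = 0.51 without the 2 farthest libraries and 0.72, 0.51 and 0.56 within HL, LH and HH. Loxl3 and Serpinh1 had r = 0.54 (permutation p = 3e-05, adjusted 0.00045) and rho = 0.46 (permutation p = 0.00028, adjusted 0.00326), with r = 0.41 without the 2 farthest and 0.76, 0.37 and 0.25 within treatments. Lox and Pcolce2 had r = 0.42 (permutation p = 0.00067, adjusted 0.00603) and rho = 0.45 (permutation p = 0.00029, adjusted 0.00326), but r was 0.46, 0.07 and 0.67 for HL, LH and HH, and 0.12 after removal of the mean of each treatment and collection. Loxl1 and Loxl3 had r = 0.46 (permutation p = 0.00024, adjusted 0.0027) and rho = 0.49 (permutation p = 0.0001, adjusted 0.00225), with r = 0.49 without the 2 farthest and 0.54, 0.52 and 0.38 within treatments. Loxl1 and Serpinh1 passed by rho alone (0.39, permutation p = 0.00191, adjusted 0.0172; r = 0.26, permutation p = 0.0406, adjusted 0.0923), and their r was 0.35 without the 2 farthest, 0.62 and 0.53 within HL and LH, and -0.37 within HH. After removal of the means of treatment and collection, r was 0.58 for Pcolce with Bmp1, 0.52 for Loxl3 with Serpinh1, 0.49 for Loxl1 with Loxl3 and 0.24 for Loxl1 with Serpinh1. Serpinh1 went the other way with Pcolce (-0.557) and with Bmp1 (-0.391), and within HH its r with them was -0.755 and -0.561. Neither of these pairs passed the test over all libraries. All libraries share the same times, and CPM values of a library share its total, so the pooled values hold both.

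The genes closest to Lox in rank over the 62 libraries, among 7779 others with a mean of at least 10 CPM, were Npnt (Spearman rho 0.85), Col1a1 (0.83) and Col6a2 (0.83), a basement membrane ligand of integrins and 2 collagen chains. The genes most opposed to it were Ephx1 (-0.74), Serpinb6b (-0.70) and Gm42418 (-0.70). Gm42418, a locus known to collect reads of ribosomal RNA, held 12.2% to 28.8% of the counts of a library, and its rho with Lox was -0.90, -0.58 and -0.72 within HL, LH and HH. With Gm42418 left out of the library totals, Lox had a JTK_cycle P by titles of 0.929 for HL, 0.000157 for LH and 0.000239 for HH. For Serpinh1 the closest genes were Sec13 (0.87), Kdelr2 (0.87) and Cdc42 (0.85), the first 2 of which act in traffic between endoplasmic reticulum and Golgi, and the most opposed were Ptpn11 (-0.71), Znfx1 (-0.70) and Dkc1 (-0.69). For Pcolce2 the closest were Lamp1 (0.62), Sec24d (0.61) and Npepps (0.57), and the most opposed were the clock-controlled genes Tef (-0.55) and Dbp (-0.55) with Gm1673 (-0.55).

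A further 3 lists of genes from the same pathway were set beside the members. None of the 14 genes for collagen hydroxylation and folding, which include the prolyl hydroxylases and the prolyl isomerase Ppib, was called rhythmic in any treatment under either assignment. By library numbers, 1 of them, P4ha3, was called higher in HH than in HL (0.41 log2; 0.568% of all genes called) and lower in LH than in HH (-0.27; 1.63%), and by titles none was called in any comparison of levels. The F test over collections called 2 of the 14, P3h1 and its partner Crtap of the prolyl 3-hydroxylation complex, in LH by library numbers (1.05% of all genes) and none by titles (2.93%). Of 12 tested genes for procollagen proteinases and cross-linking partners, only Postn, a matricellular protein that binds Bmp1 and collagen, was called in levels by titles: it was higher in HH than in HL (0.28; 1.2% of all genes called) and lower in LH than in HH (-0.27; 0.91%). By library numbers Postn was not called in levels (p over the 3 treatments 0.0117 in edgeR) and was called rhythmic in HL (JTK_cycle P = 0.00108; 1.83% of all genes called).

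Of the 9 substrate genes tested, which encode fibrillar collagen chains, elastin and fibrillin, none was called in levels under either assignment. Their median log2 difference by titles was -0.25 for LH against HH, with 8 of 9 below 0, and -0.12 for LH against HL. By library numbers the medians were -0.08 and -0.05. Col5a3 was called rhythmic in LH by titles (P = 0.00699), and Col1a1 (P = 0.00678), Col5a1 (0.000453) and Col5a3 (0.000453) were called in LH by library numbers, and Col5a3 in HL by library numbers (0.00183), which is 1 and 3 of 9 in LH and 1 of 9 in HL, where 1.53%, 2.14% and 1.83% of all genes were called. The F test over collections called Col5a3 in LH by titles, and by library numbers Col5a3 in HL and Col3a1 in LH, 1 of 9 each, where 2.93%, 0.394% and 1.05% of all genes passed. In HH, none of the 3 lists had a gene called rhythmic.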

How the data were processed

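RNA of the fibroblasts was measured by 3′ digital gene expression in HL, LH and HH at 6 collections. The authors deposited, for each sequencing run, raw counts of reads per Ensembl gene. The submitters' processing notes name bcl2fastq, STAR 2.6.0a, HTSeq 0.9.1 and the mm10 build, while the use of strand is not given in the sources used here. The 121 count sets were summed over runs into 62 libraries by sample titles, and a second time into 57 libraries by the library numbers of the study's read summary. Rows that name no gene stayed out of all totals, and reads without a feature were a median of 22.3% of a library (18.4% to 29.1%). Depth was 104912 counts in 1 library and 2136819 to 11619095 in the others.

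Tests covered the genes that reached 1 CPM in 3 or more libraries (13292 by titles, 13198 by library numbers). Rhythms were tested with a rewritten JTK_cycle on CPM with an exact null distribution, a period of 24 h and phases every 2 h, and called at P below 0.01. Levels, changes over collections and differences of rhythm were tested with edgeR 4.0.16 (quasi-likelihood, TMM, all treatments in 1 fit, R 4.3.3), with DESeq2 1.42.0 as an alternative. Levels were called at p below 0.01 over the 3 treatments and below 0.05 in the comparison. Relations were tested over 62 libraries by 100000 permutations of log2(CPM + 1). Other steps used Python 3.11.15, numpy 2.4.6, pandas 2.3.3, scipy 1.17.1 and matplotlib 3.10.9. The JTK_cycle and edgeR steps were tested on simulated data.

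The members, the lists of genes and the tests were chosen with earlier results of these data known. Named genes were all 10 members, the genes of the lists past a test, and the 3 genes most and least like each of the 3 members with the smallest JTK_cycle P by titles. Replicate numbers are shared between groups, but by titles same-numbered libraries did not deviate together (median r = -0.02 over 52 pairs, from -0.56 to 0.66). No block therefore entered the main tests. Pairing by library numbers was not checked, and wrong titles would hide a pairing, so the check cannot exclude one. A total of 21 alternatives were planned and 5 were chosen after the data were seen.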

Additional observations from a re-analysis of the deposited data

Results flagged for a closer look

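In the 9 groups of 4 libraries by titles, 90 pairs of gene and group were examined for a single library far from the other 3, by Dixon's ratio at its 95% critical value, which chance passes in about 1 of 20 groups. There were 3 such pairs. Serpinh1 stood at 99.95 CPM in HL collection 6 replicate 4, against 216 to 232.9 CPM in the other 3 libraries. Plod2, the lysyl hydroxylase of collagen telopeptides, stood at 213 CPM in HL collection 6 replicate 3, against 115 to 130 CPM. Loxl3 stood at 18.1 CPM in LH collection 3 replicate 4, against 21.8 to 22.1 CPM.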

How the results depend on the processing

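Of 375 alternative values that did not leave out a replicate number, 325 changed neither sign nor side of the threshold or, for counts of members called, stayed within 1.5 times. Some could not change, such as the JTK_cycle values of HH by library numbers, from the same libraries. The share is thus no measure of stability. A count does not say which genes: by library numbers the 1 member called in level in LH against HL and in LH against HH was Loxl2 in place of Lox. Percentages below are the share of all genes called in the same setting. They are not given where a replicate number was left out, so those counts have no share to be set against. Differences in level were followed under the alternatives for Lox and Loxl2 only. Of these, 3 changed sign by library numbers: Lox in LH against HL (0.087) and LH against HH (0.079), and Loxl2 in LH against HL (-1.89). Other members, among them Loxl3, Plod1 and Serpinh1 in LH against HL, also changed sign between the assignments and are not in this count. None of those differences was called in either assignment. The cause of the changes below was not tested. By library numbers 1 member was rhythmic in HL (1.83%). With the second run alone, 1 was rhythmic in HH (1.82%), 2 differed in level in LH against HL (0.913%), and 0 changed over collections in HL (0.411%) and HH (0.344%). Without the library under 1000000 counts (0.889%), or without collection as a term (0.918%), 0 differed in LH against HH. Without the filter on low counts 3 changed over collections in HH (2.4%). With adjusted JTK_cycle P-values 0 were rhythmic in LH (0%) and in HH (0.0226%), and with an amplitude above 10 CPM 1 in HH (0.82%). DESeq2 called 2 members in LH against HL (1.26%) and 1 in HH against HL (1.22%). With the replicate block the level calls were 2 in LH against HL (Lox and Loxl2), 1 in HH against HL (Loxl2) and 0 in LH against HH, where Lox was lost, with 1.04%, 0.978% and 0.745% of all genes called, and no other count of members called moved. With levels called by adjusted p, 0 differed in LH against HL and in LH against HH (0% each). Unadjusted p gave 3 differences of rhythm for HH against HL (9.91%) and 2 for LH against HH (9.61%), and changes over collections in 2, 2 and 3 members in HL, LH and HH (8.98%, 16.9% and 8.61%). The first run alone gave 3 related pairs. Without the 6 libraries that resembled the rest less, chosen after seeing the data, 1 member, Lox, differed in level in HH against HL by titles (1.43%), and by library numbers 2 were rhythmic (2.99%) and 2 changed over collections (2.21%) in LH. Leaving out 1 replicate number gave 0 to 1 rhythmic members in LH and 0 to 2 in HH, level calls of 1 to 2 in LH against HL, 0 to 1 in HH against HL and 0 to 1 in LH against HH, 0 to 1 changes over collections in HL, LH and HH each, and 5 to 8 related pairs. Loxl2 held at most 21 counts in a library and Pcolce2 at most 83.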
